A study of Mus musculus with 48 samples.

Results

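The subject here is a set of 10 chemokine genes of the mouse brain: Ccl2, Ccl3, Ccl4, Ccl5, Ccl6, Ccl9, Ccl12, Cxcl10, Cxcl16 and Cx3cl1. They were chosen by gene symbol, matched to the Ensembl identifiers of the count tables, and are 10 of the 48709 genes counted; all 10 matched. The study compared RNA of male C57BL/6J mice lacking Formin 2 (Fmn2, a protein that organises actin filaments) with controls, with and without a transgene that gives rise to amyloid. The transgenic mice were APPPS1-21, in which a Thy1 promoter drives mutant human amyloid precursor protein and presenilin in neurons. RNA of whole tissue pieces was sequenced in 48 runs from 46 mice.

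The mice formed 8 groups. Without amyloid, dentate gyrus came from 5 Fmn2+/+ and 5 Fmn2-/- mice of 3 months and from 3 Fmn2+/+ and 5 Fmn2-/- mice of 8 months. With amyloid, dentate gyrus of 3 months came from 7 mice labelled FMN2-/-_APP and 9 labelled FMN2 +/+ APP, here called the amyloid cross. A further 6 APP and 6 wild type mice of 4 months carried PFC in their titles while their tissue field named dentate gyrus. The Fmn2 deletion is constitutive, so it was present in all cells of those mice.

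Several libraries went against their labels or stood apart. Fmn2 itself averaged 92.4 ± 7.2 CPM (read counts scaled to the size of each library; SD, n = 7) in the cross libraries labelled FMN2-/-_APP and 20.8 ± 1.5 CPM (SD, n = 9) in those labelled FMN2 +/+ APP, the reverse of what the labels name, whereas in the 3-month mice without amyloid it was 104.5 ± 7.9 CPM in Fmn2+/+ and 25.6 ± 2.3 CPM in Fmn2-/- (SD, n = 5 each). The summed level of 8 dentate granule cell markers was 204 to 265 CPM in the 4-month libraries and 803 to 1528 CPM in all others, and that of 8 cortical layer markers was 427 to 495 CPM against 102.8 to 271 CPM. Thy1, whose promoter drives the transgene, lay at or below the highest 3-month mouse without amyloid in 3 of the 16 cross mice (labelled FMN2-/-_APP replicates 1 and 7, labelled FMN2 +/+ APP replicate 4), so calls of the 10 genes in the cross are given with and without them. Reads on genes ran from 6818809 to 43921030 a mouse. In such pieces of tissue, fewer cells of a type and less RNA per cell cannot be told apart.

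Chemokines are small proteins that draw cells along their gradients by binding G protein-coupled receptors. In the brain many of the CC class are made by microglia, the resident macrophages, which gather around amyloid plaques. Cx3cl1 (fractalkine) is made mostly by neurons as a membrane-bound protein and signals to microglia through Cx3cr1. Adam10 and Adam17 can cut Cx3cl1 and Cxcl16 from the membrane.

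Of the 10 genes, 8 lie on chromosome 11 in mm10 (gene models of GENCODE M21), and the CC genes sit in clusters. Ccl9 ends 9.2 kb before Ccl6 begins, Ccl6 is 54.8 kb from Ccl3, and Ccl3 is 13.2 kb from Ccl4. Ccl3 (ENSMUSG00000000982) spans 83647844 to 83649355 and Ccl6 (ENSMUSG00000018927) spans 83587882 to 83593087, both on the minus strand. Cxcl10 (ENSMUSG00000034855) lies on chromosome 5 at 92346638 to 92348889, and Cx3cl1 (ENSMUSG00000031778) on chromosome 8 at 94772009 to 94782427.

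RefSeq promoter entries (build GRCm38.p6) were at hand for 6 of the 10 genes: Ccl3, Ccl6, Ccl9, Ccl12, Cxcl10 and Cx3cl1. The 250 bases before the RefSeq start are shown for 4 genes. The RefSeq start differs from the end of the GENCODE model given above for Ccl3, whose window stops short of that model, and for Cx3cl1, whose window lies mostly inside it. The 4 were chosen because Ccl3 and Ccl6 had the lowest adjusted p among the members that rose in the 4-month APP mice, Cxcl10 is a textbook target of interferon, and Cx3cl1 did not rise. Capitals mark a TATA box (TATAAA), a kappaB-like motif (GGG, 3 bases of any kind, TTCC), an interferon response element-like motif (GAAA, 2 bases of any kind, GAAA) or an AP-1-like motif (TGANTCA), searched on both strands. An Ets core (GAGGAA) was searched as well and is not in capitals.
Ccl3, chr11:83649379-83649628, minus strand: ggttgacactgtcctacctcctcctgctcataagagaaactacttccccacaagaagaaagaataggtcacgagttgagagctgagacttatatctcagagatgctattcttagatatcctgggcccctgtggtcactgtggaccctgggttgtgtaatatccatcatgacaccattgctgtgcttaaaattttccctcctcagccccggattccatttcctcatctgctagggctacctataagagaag
Ccl6, chr11:83593088-83593337, minus strand: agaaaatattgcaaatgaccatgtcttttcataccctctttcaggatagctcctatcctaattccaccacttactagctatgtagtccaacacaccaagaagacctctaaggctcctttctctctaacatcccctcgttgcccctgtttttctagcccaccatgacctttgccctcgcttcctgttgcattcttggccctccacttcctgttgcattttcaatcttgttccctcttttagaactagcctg
Cxcl10, chr5:92348890-92349139, minus strand: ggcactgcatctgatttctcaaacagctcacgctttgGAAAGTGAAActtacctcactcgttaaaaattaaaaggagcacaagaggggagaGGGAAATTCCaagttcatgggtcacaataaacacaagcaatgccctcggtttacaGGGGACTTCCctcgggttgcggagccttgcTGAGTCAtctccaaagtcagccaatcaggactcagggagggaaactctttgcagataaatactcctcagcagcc
Cx3cl1, chr8:94771930-94772179, plus strand: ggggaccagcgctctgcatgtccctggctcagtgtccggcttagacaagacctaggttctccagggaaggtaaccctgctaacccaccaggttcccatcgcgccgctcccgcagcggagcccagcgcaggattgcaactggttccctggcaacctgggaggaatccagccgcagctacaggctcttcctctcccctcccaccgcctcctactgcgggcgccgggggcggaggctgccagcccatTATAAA

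Cxcl10 held 2 kappaB-like motifs, 1 interferon response element-like motif and 1 AP-1-like motif, none overlapping another, and no TATAAA. Over 32817 promoter windows of the same length, 4.65% held a kappaB-like motif, 2.97% the interferon response element-like motif, 6.75% the AP-1-like motif, 12.4% the TATA box and 23.3% the Ets core. Ccl6 held none of these, Ccl3 held 1 Ets core alone, and Cx3cl1 held 2 Ets cores and a TATAAA at the end of the window, next to the RefSeq start. Of the genes searched but not shown, Ccl9 held a kappaB-like motif at -35 to -26, an AP-1-like motif at -53 to -47 and TATAAA matches. Ccl12 held a TATA box at -31 to -26 and an Ets core. Matches of letters are a description and do not show binding.

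The 10 genes differed widely in level. Per kilobase of exon, Cx3cl1 averaged 148.3 CPM per kb over all 46 mice, Ccl6 2.16 and Ccl3 1.07 CPM per kb, and Ccl2 and Ccl5 0.105 and 0.104 CPM per kb. Cx3cl1 took 98.4% of all reads on the 10 genes. Neither Ccl2 nor Ccl5 had more than 12 reads in any mouse, so these chemokines of monocytes and T cells were measured with low precision.

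**Figure D1:**
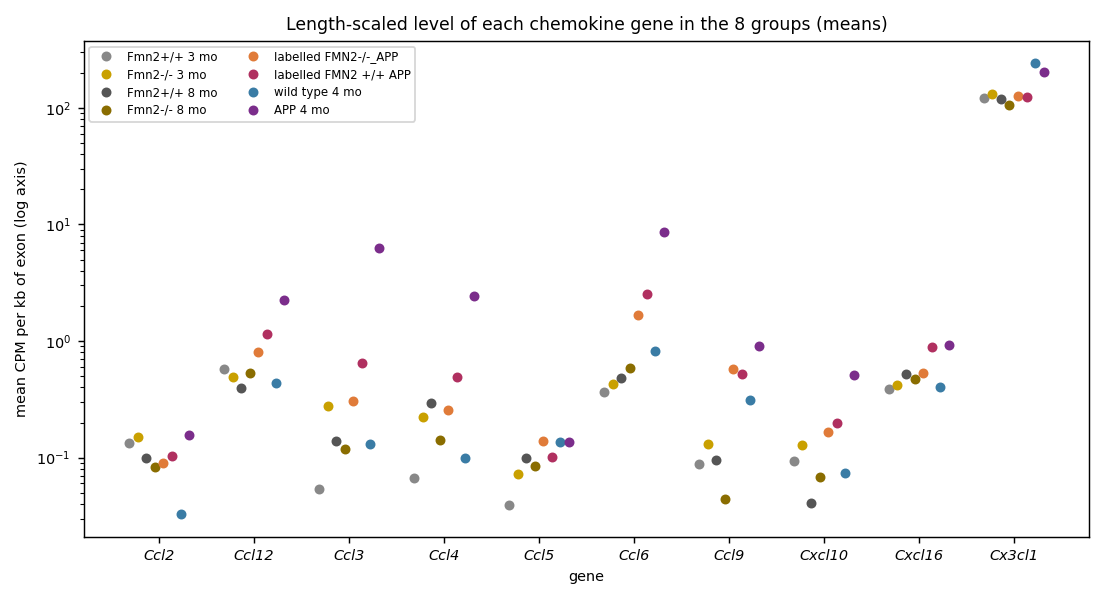
Mean level of each of the 10 chemokine genes in the 8 groups, in CPM per kilobase of exon on a log axis; each point is the mean of 1 group. Cx3cl1 stands above all others in every group, and every other gene but Ccl5 has its highest mean in the APP mice of 4 months.

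The first question was whether these genes differed between APP and wild type mice of 4 months, the comparison in which most of them moved. Of 8 members that passed the filter on low counts, 7 were higher in APP mice by the test over all genes (edgeR quasi-likelihood test, adjusted p under 0.05 and a log2 fold change of at least 0.5), where 2.34% of 16733 genes were called and 2.19% were called higher. The median log2 fold change of the 8 was 2.52, against -0.00041 over all genes tested. Ccl3, Ccl4 and Ccl12, and Cxcl10 but for 1 wild type mouse, reached the filter through the APP mice and so had to differ. This makes both the count and the median a description. With no filter all 10 were tested and the count was again 7. All APP libraries were on lane 7 and all wild type ones on lane 5, so lane and genotype cannot be told apart.

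Ccl3, a ligand of Ccr1, was at 3.15, 5.11 and 6.01 CPM (lowest, median, highest of 6 mice) in APP and at 0, 0.0867 and 0.203 CPM in wild type. The groups did not overlap, which held for 3.33% of all genes tested in this comparison. For Ccl3, and for Ccl4 and Ccl12 below, every wild type mouse was under the level of the filter. Their lack of overlap was therefore set by the filter and is a description. Its log2 fold change was 5.58 ± 0.33 (SE, adjusted p = 3.06e-09, edgeR). The wild type libraries held 12 reads of Ccl3 in all and the APP libraries 820.

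Its neighbour Ccl4, a macrophage inflammatory protein like Ccl3, ran from 0.962 to 2.37 CPM (median 1.55) in APP and from 0 to 0.178 CPM (median 0.0215) in wild type. Again no APP mouse fell within the wild type range, and the log2 fold change was 4.72 ± 0.47 (SE, adjusted p = 2.4e-06, edgeR).

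Ccl6, a ligand of Ccr1, was the most abundant of the CC genes among the 10 per length in the APP mice, at 8.64 CPM per kb on average. APP mice lay at 12.8, 15.6 and 18.4 CPM (lowest, median, highest) and wild type mice at 0.988, 1.25 and 2.38 CPM. With no overlap and a log2 fold change of 3.37 ± 0.16 (SE, adjusted p = 2.12e-10, edgeR), it had the smallest adjusted p of the 8 members.

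Ccl9, a further Ccr1 ligand beside Ccl6 on the chromosome, rose from a median of 0.883 CPM (0.622 to 1.25) in wild type to 2.36 CPM (2.2 to 3.76) in APP. The log2 fold change was 1.54 ± 0.20 (SE, adjusted p = 8.55e-05, edgeR), and the groups stood apart.

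Ccl12, a ligand of Ccr2, was at 0.561, 1.08 and 1.94 CPM in APP and at 0.129, 0.23 and 0.355 CPM in wild type (lowest, median, highest). No APP mouse was in the wild type range, and its log2 fold change was 2.36 ± 0.38 (SE, adjusted p = 0.000558, edgeR). Its relative Ccl2 was under the filter, with 30 reads over the APP and 5 over the wild type libraries. APP mice were at 0.0975 to 0.356 CPM of Ccl2 and wild type mice at 0 to 0.0875 CPM. The ranges did not overlap, but the lowest APP mouse had 3 reads and the highest wild type mouse 2. In the wild type libraries 3 reads, the limit a count of 0 allows, equal 0.119 to 0.182 CPM. With no filter the log2 fold change of Ccl2 was 2.03 (adjusted p = 0.114, edgeR).

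Cxcl10, the Cxcr3 ligand whose promoter is shown above, ranged among the APP mice from 0.361 to 2.29 CPM (median 0.895). Wild type mice ran from 0.0569 to 0.473 CPM (median 0.102), so the groups overlapped. The log2 fold change was 2.68 ± 0.55 (SE, adjusted p = 0.00567, edgeR).

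Cxcl16, a membrane-bound ligand of Cxcr6, lay at 1.92 to 3.6 CPM (median 2.73) in APP and at 0.875 to 1.52 CPM (median 1.21) in wild type without overlap. Its log2 fold change was 1.20 ± 0.19 (SE, adjusted p = 0.000414, edgeR).

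Cx3cl1 went the other way. APP mice were at 758, 799 and 861 CPM and wild type mice at 870, 949 and 996 CPM (lowest, median, highest), and the ranges did not overlap, lower without overlap being the case for 0.717% of genes. The log2 fold change was -0.24 ± 0.04 (SE, adjusted p = 0.00196, edgeR), under the fold threshold, so it was not called. Ccl5, a ligand of Ccr1, was at 0.0318 to 0.26 CPM in APP and 0 to 0.398 CPM in wild type and was under the filter.

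**Figure D2:**
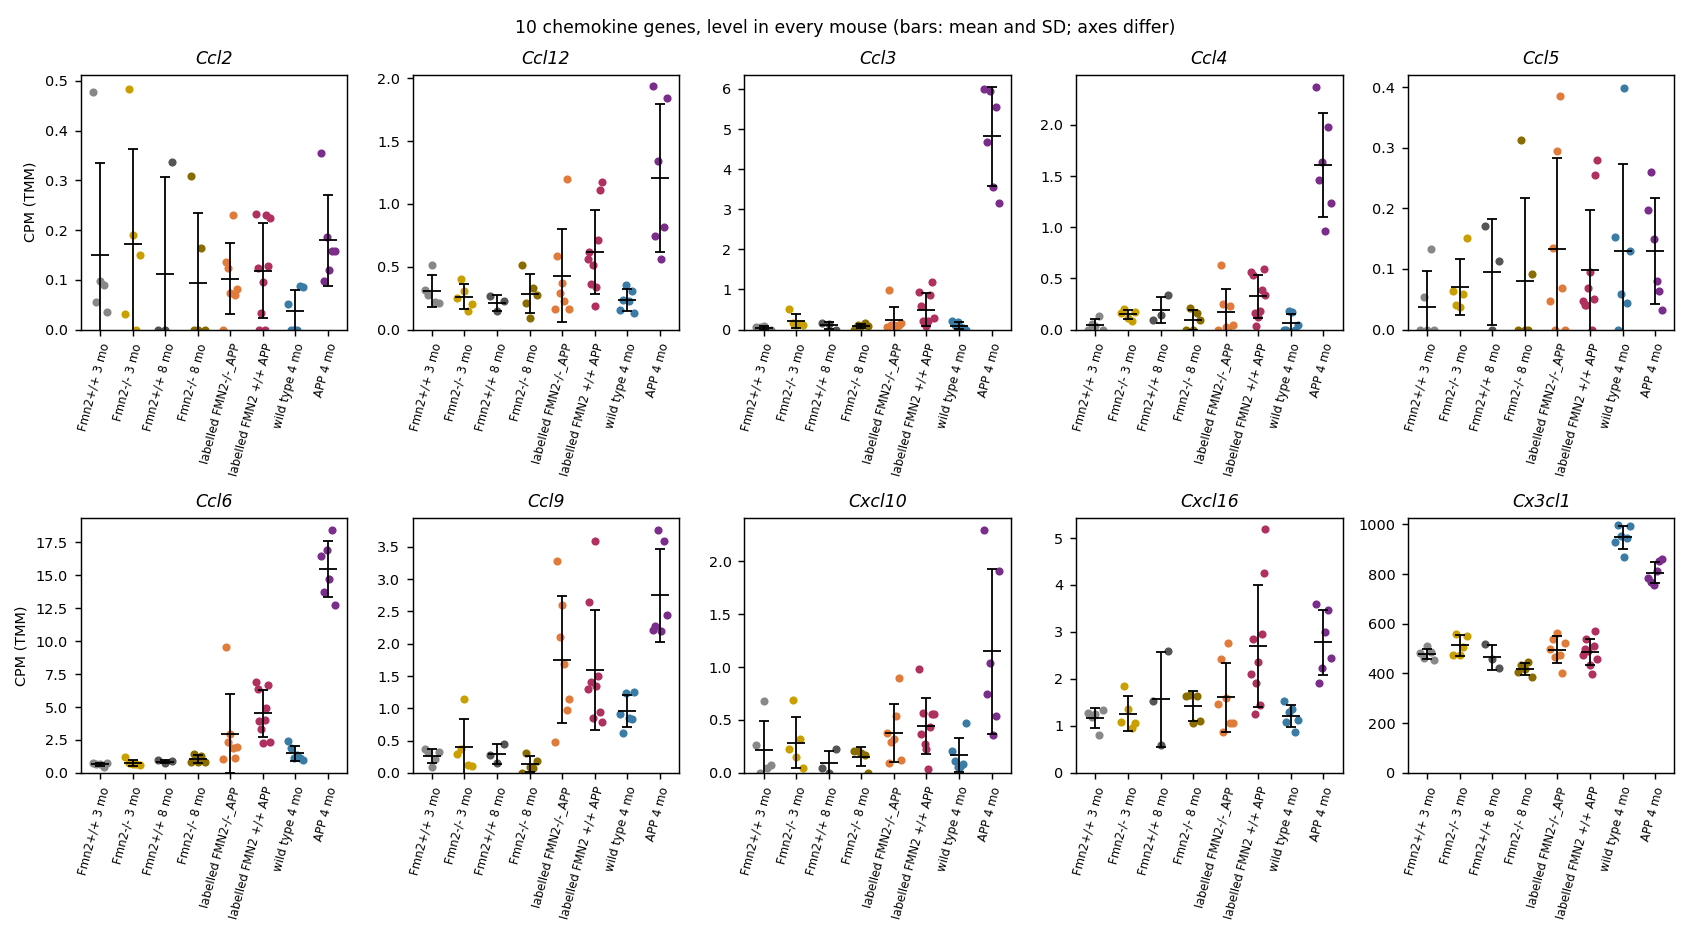
Level of the 10 chemokine genes in each of the 46 mice, in CPM with TMM factors, by group; each point is a mouse, bars give mean and SD, and the axes differ between genes. Ccl3, Ccl4 and Ccl6 of the 6 APP mice of 4 months lie above every other mouse, while Cx3cl1 is highest in wild type mice of 4 months.

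Marker lists of other cells moved beside these genes. In the same comparison 12 of 13 microglial markers rose, with summed levels of 659 to 855 CPM in APP against 375 to 404 CPM in wild type. Of 11 markers of plaque-associated microglia 9 rose, with sums of 614.5 to 790.1 CPM against 269 to 287 CPM. Of 10 interferon response genes 9 rose. The part of these shifts in the chemokine levels was not tested. The 8 markers of monocytes and neutrophils summed to 0.222 to 0.85 CPM in APP and 0.258 to 1.52 CPM in wild type with none passing the filter, and of 10 lymphocyte markers 2 passed it and neither was called.

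Among the receptors, Cx3cr1, found on microglia, rose. Cx3cr1, the receptor of Cx3cl1, averaged 76.0 ± 7.6 CPM in APP and 49.0 ± 2.9 CPM in wild type (SD, n = 6 each), a log2 fold change of 0.63 ± 0.06 (SE, adjusted p = 2.54e-06, edgeR). Ccr1, the receptor of Ccl3, Ccl6 and Ccl9, was under the filter at 0.365 ± 0.171 and 0.0782 ± 0.0329 CPM, as were Ccr2 (0.401 and 0.295 CPM on average), Cxcr3 (0.0536 and 0.0403 CPM) and Cxcr6 (0.0817 and 0.0401 CPM).

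The decoy receptor Ackr2 had a log2 fold change of 0.046 ± 0.13 (SE). The sheddases Adam10 and Adam17 had log2 fold changes of 0.044 ± 0.05 and 0.14 ± 0.06 (SE), neither of them called. Of 31 other chemokine ligands 8 were tested and 2 rose: Cxcl5, a neutrophil attractant, by a log2 fold change of 1.68 (adjusted p = 0.000224, edgeR) and Ccl28, a mucosal chemokine, by 1.13 (adjusted p = 0.0368, edgeR). The median of the 8 was -0.0014 on the log2 scale.

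The amyloid cross was then set against the 10 mice of 3 months without amyloid, all in dentate gyrus. Of 5 members tested, 3 were higher, where 15.4% of 16780 genes were called and 8.67% called higher. The labels do not say whether the cross and the other mice were bred and handled together, so any such batch and amyloid cannot be told apart. Lane numbers 5 and 6 held mice of both kinds, but an equal number need not mean the same sequencing run. The other cross mice had no mouse without amyloid in their lane. A fit with lane as a covariate was added after the data had been seen. In it 3 members were again called: Ccl6 (2.44, adjusted p = 1.67e-06), Ccl9 (2.51, adjusted p = 7.32e-06) and Cxcl16 (0.61, adjusted p = 0.018, edgeR).

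Ccl6 ran from 1.05 to 9.59 CPM (median 1.93) in the 7 mice labelled FMN2-/-_APP and from 2.29 to 6.9 CPM (median 4.02) in the 9 labelled FMN2 +/+ APP. The Fmn2+/+ mice of 3 months were at 0.744, 0.709, 0.646, 0.444 and 0.737 CPM and the Fmn2-/- mice at 1.17, 0.727, 0.682, 0.672 and 0.601 CPM. The highest mouse without amyloid exceeded 2 of the 16 cross mice, both labelled FMN2-/-_APP. The log2 fold change was 2.43 ± 0.33 (SE, adjusted p = 7.84e-07, edgeR), and 2.63 (adjusted p = 4.11e-08) without the 3 cross mice with low Thy1.

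Ccl9 rose in the cross by a log2 fold change of 2.35 ± 0.38 (SE, adjusted p = 9.61e-06, edgeR; 2.36 without the mice with low Thy1). Cross mice ran from 0.476 to 3.59 CPM, and the mice without amyloid from 0.0969 to 1.14 CPM. All but 1 of the mice without amyloid were below the level of the filter, so Ccl9 was tested through the cross mice and its call is a description. That mouse, Fmn2-/- replicate 4, also had 4138 CPM of Ttr, the transport protein that marks choroid plexus, where the other 9 were at 3.69 to 41.3 CPM. The highest cross mouse for Ccl9, labelled FMN2 +/+ APP replicate 4, had 8934 CPM of Ttr, while replicate 5 of that group had 5868 CPM of Ttr and 1.34 CPM of Ccl9. The part of choroid plexus in Ccl9 was not tested.

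Cxcl16 was higher in the cross by a log2 fold change of 0.87 ± 0.25 (SE, adjusted p = 0.0047, edgeR; 0.96 without the mice with low Thy1). The call was lost for mice labelled FMN2-/-_APP against Fmn2-/- (0.38, adjusted p = 0.403) or against Fmn2+/+ (0.46, adjusted p = 0.234). Cxcl10 had a log2 fold change of 0.72 ± 0.44 (SE, adjusted p = 0.182, edgeR) and Cx3cl1 one of -0.0048 ± 0.06 (SE, adjusted p = 0.951).

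Ccl3, Ccl4 and Ccl12 were under the filter in this comparison. With no filter Ccl12 was called (log2 fold change 0.91, adjusted p = 0.0428, edgeR), and Ccl3 (1.48, adjusted p = 0.0542) and Ccl4 (1.29, adjusted p = 0.103) were not. Ccr1 rose by a log2 fold change of 1.99 (adjusted p = 0.00192, edgeR), while Ackr4, a scavenging receptor, fell by 0.93 on the log2 scale (adjusted p = 0.014). Of the other ligands Cxcl5 (2.22), Ccl28 (1.82) and Pf4, a platelet chemokine (0.86), were higher. Median Ccl28 was 0.455 CPM in mice labelled FMN2-/-_APP and 0.363 CPM in those labelled FMN2 +/+ APP. It was 0.281 CPM in Fmn2+/+ and 0.379 CPM in Fmn2-/- mice of 3 months. The highest cross mice of the 2 labels were at 6.89 and 2.43 CPM, and the highest mouse without amyloid at 0.776 CPM. Cx3cr1 had a log2 fold change of -0.0049 ± 0.08 (SE), Ccr2 one of 0.16 ± 0.35 and Ackr2 one of -0.55 ± 0.31. Adam10 had one of 0.16 ± 0.05 (adjusted p = 0.00528), under the fold threshold, and Adam17 one of 0.10 ± 0.07.

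**Figure D3:**
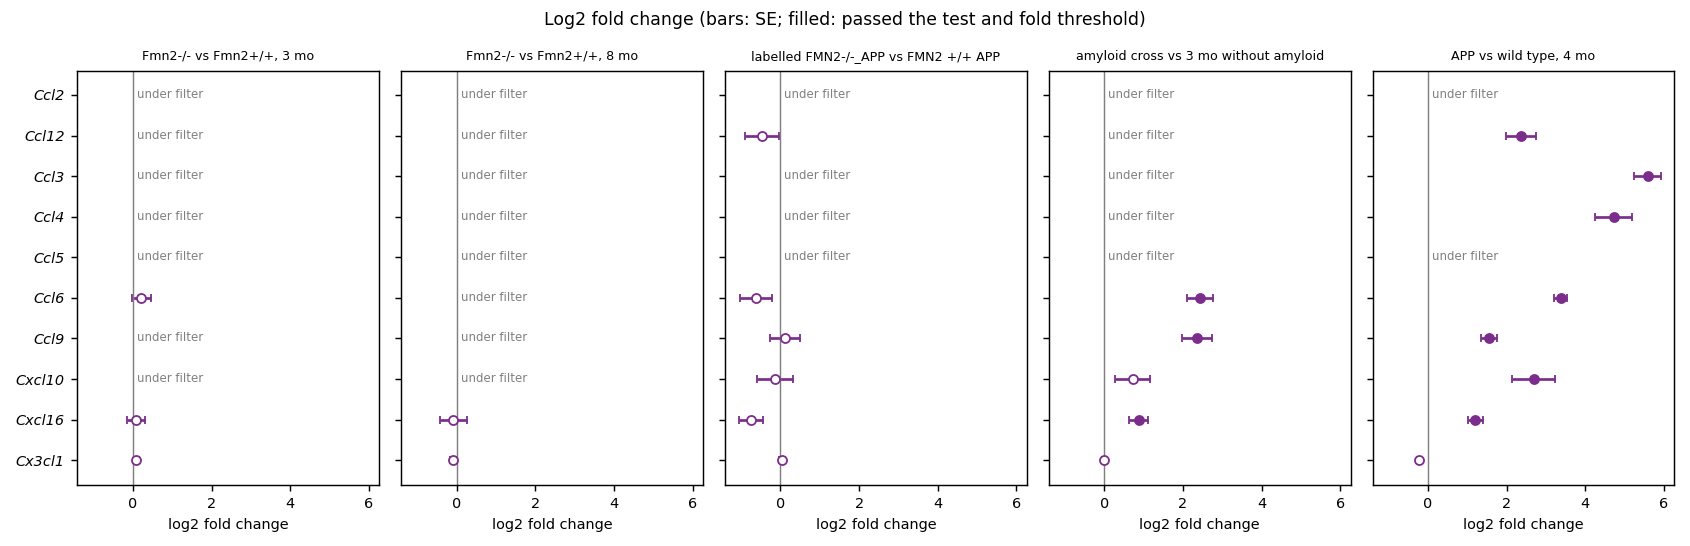
Log2 fold change with its SE (bars) of each chemokine gene in 5 comparisons; filled points passed the test and the fold threshold, open points did not, and "under filter" marks genes with too few reads to test. Filled points appear only in the amyloid columns, 3 in the cross and 7 in the 4-month mice.

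The amyloid effects of the 4-month mice and of the cross were compared in 1 fit over 38 mice, added after the data had been seen. Ccl3 and Ccl4 had larger effects at 4 months, by 4.13 ± 0.94 and 3.45 ± 1.01 on the log2 scale (SE, adjusted p = 0.00136 and 0.0115, edgeR), 2 of 8 tested, where 10.5% of 18090 genes were called and 4.85% called higher. Both reached the filter mainly through the 4-month APP mice, so these differences are a description. Without the cross mice with low Thy1 the differences were 3.88 and 3.27 (adjusted p = 0.00165 and 0.0121), and Ccl12 was called as well (1.43, adjusted p = 0.0365). Ccl6 had a difference of 0.94 ± 0.48 (SE, adjusted p = 0.154), and Ccl9 one of -0.84 ± 0.52 (SE, adjusted p = 0.259), the only negative one apart from Cx3cl1, at -0.25 ± 0.09 (SE, adjusted p = 0.0376 and under the fold threshold). With no filter on low counts the difference for Cx3cl1 was -0.21 (adjusted p = 0.132, edgeR). Tissue markers, age and any batch between the 2 sets of mice coincide in this comparison and cannot be told apart.

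Within the cross, the labelled genotypes were compared. None of 6 members tested was called by edgeR, where 0.774% of 16656 genes were; DESeq2 also called none, and none was called without the mice with low Thy1. Cxcl16 in mice labelled FMN2-/-_APP had a log2 fold change of -0.75 ± 0.31 (SE, adjusted p = 0.233; -0.66 without the mice with low Thy1, adjusted p = 0.518). Ccl6 had one of -0.63 ± 0.41 (SE, adjusted p = 0.47), and without replicate 2 of the mice labelled FMN2-/-_APP it was -1.28 and called (adjusted p = 0.0341). That mouse held 9.59 CPM of Ccl6, 0.99 CPM of Ccl3 and 8.42 CPM of Cst7, a marker of plaque-associated microglia, whereas the other 6 of its group were at 2.94 CPM of Ccl6 or less. Cxcl5, no member of the 10, was called lower over all 16 mice (-2.43, adjusted p = 0.0386, edgeR), at 0.426 ± 0.293 CPM (SD, n = 7) against 2.34 ± 1.96 CPM (SD, n = 9).

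The 16 cross mice differed among themselves in plaque-associated markers, falling into 10 with a mean of 2.95 to 3.45 and 6 with one of 4.18 to 4.83 on the log2(CPM + 0.5) scale. For 7 members with at least 10 reads on average, 49 relations with that mean were computed after the data had been seen, over all 16 mice, each labelled genotype, 2 sequencing lanes and each of these clusters. Of the 49, 10 had an adjusted p under 0.05 for Pearson's r, 8 of them over mice of both clusters and 2 within the lower one, both of Cxcl16. Because the mice fell into clusters, no value over all 16 is given. Among the 10 lower mice Cxcl16 rose with the marker mean, with Pearson's r = 0.841 (permutation p = 0.00266, 0.0261 adjusted over the 49) and Spearman's rho = 0.842 (adjusted permutation p = 0.0389), and r was 0.715 without the 2 mice farthest from the median. These 10 included the cross mice with low Thy1, and the relations of the 10 were not computed without those mice. Among the 6 higher mice r for Cxcl16 was 0.753 (exact permutation p = 0.0681) and 0.0616 without the 2 farthest. For Ccl3 r was -0.262 and 0.118 in the lower and higher mice, and for Ccl6 0.481 and -0.31. The 6 mice of lane 6, all of the lower cluster, gave r = 0.885 for Cxcl16 (exact permutation p = 0.00694, 0.034 adjusted over the 49), -0.683 for Ccl3 and -0.0732 for Ccl6. The 6 mice of lane 5 were 3 of each cluster, so no value is given for them, as for all 16.

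**Figure D4:**
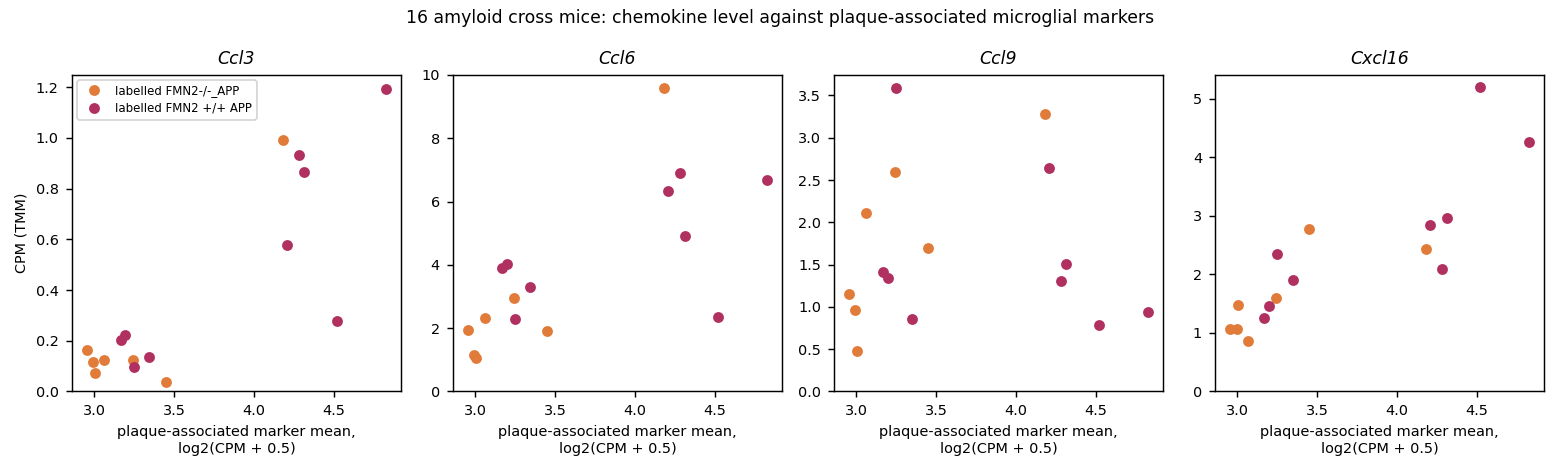
Level of Ccl3, Ccl6, Ccl9 and Cxcl16 (CPM) in the 16 amyloid cross mice against their mean log2(CPM + 0.5) over 11 markers of plaque-associated microglia; each point is a mouse, coloured by labelled genotype. The marker mean leaves a gap between 3.45 and 4.18.

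Loss of Fmn2 without amyloid came last. At 3 months 3 members were tested and none was called by edgeR (0.0301% of 16630 genes were), nor by DESeq2. All Fmn2+/+ mice of 3 months shared a lane, and of the Fmn2-/- mice only replicate 1 was on it. Lane and genotype can thus hardly be told apart here. Ccl6 had a log2 fold change of 0.21 ± 0.24 (SE), Cxcl16 one of 0.07 ± 0.22 and Cx3cl1 one of 0.08 ± 0.06. Cx3cl1 was at 482, 461, 509, 485 and 454 CPM in Fmn2+/+ and at 474, 560, 475, 506 and 551 CPM in Fmn2-/- mice, with overlap.

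At 8 months 2 members were tested and none was called, where 1.13% of 14665 genes were, a count that ran from 4 to 3087 genes with 1 mouse left out. Cxcl16 had a log2 fold change of -0.09 ± 0.35 (SE) and Cx3cl1 one of -0.10 ± 0.08. Cx3cl1 was at 519, 457 and 420 CPM in Fmn2+/+ and at 405, 434, 418, 444 and 384 CPM in Fmn2-/- mice. No difference between the effects at both ages was called for the 3 members tested (3.73% of 17046 genes were, and 8 to 2791 genes with 1 mouse left out), with Cx3cl1 at -0.19 ± 0.10 on the log2 scale (SE, adjusted p = 0.236, edgeR). Chemokine receptors and other ligands had no call in either comparison.

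Over the 46 mice, the genes whose log2 CPM was most like that of Ccl6 among 18932 genes were Trem2 (Pearson's r = 0.933), Tyrobp (0.928) and Mpeg1 (0.913). For Cxcl16 they were Lyz2 (0.887), Cybb (0.88) and Ifitm3 (0.875), and for Ccl9 mt-Nd3 (0.81), Ptk7 (0.809) and Plxnb2 (0.808). Cx3cl1 was most like Efhd2 (0.961), Ngef (0.953) and Prkcz (0.953). These values describe likeness over groups that differ in age, genotype and tissue markers.

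Counts over antisense neighbours are uncertain, since the strand setting of the counting was not stated. Cxcl10 overlaps Art3 and Cxcl16 overlaps Zmynd15 on the opposite strand, and these neighbours held 2853 and 597 reads over all mice. Ccl6 overlaps E230016K23Rik (72 reads) and Ccl2 overlaps Gm17268 (0 reads), also on the opposite strand.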

How the data were processed

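RNA of whole tissue was made into TruSeq libraries, which the authors aligned with STAR 2.3.0 to mm10 and counted per gene with HTSeq; the deposited values are raw read counts. Runs of the same mouse were summed (2 mice had 2 runs). Counts were tested with edgeR 4.0.16 (R 4.3.3): TMM factors, filterByExpr with a minimum count of 10, and the quasi-likelihood test over all genes with Benjamini-Hochberg adjustment. Calls needed an adjusted p under 0.05 and a log2 fold change, in either direction, no smaller than 0.25 (Fmn2 comparisons) or 0.5 (others). SE is the log2 fold change divided by the root of F. Levels are CPM with TMM factors over all 46 mice, divided by exon length (GENCODE M21) where genes are compared; 48349 of 48709 identifiers were annotated. Alternatives were DESeq2 1.42.0, its size factors in edgeR, no filter, a length and GC correction, a replicate block, lane, and leaving out each mouse.

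Depth was 6818809 to 43921030 reads a mouse, and 3 reads, the limit a count of 0 allows, equal 0.0683 to 0.44 CPM; this covers counting error only. The scripts were tested on simulated data. The members and gene lists were chosen with earlier results of these data known, so p-values on members are not independent evidence. Text names all members, other chemokine ligands and receptors called, the members' receptors and sheddases, except 1 item not reported here, and the 3 genes most like each member of at least 1 CPM. The replicates are mice numbered within a group, and p-values measure the spread between them. In the 8-month Fmn2-/- group, replicates 2 and 3 differed by a chi-square per degree of freedom of 1.62. All other pairs of that group were at 3.5 to 6.4. The repeat runs of 1 mouse differed by 1.72 and 2.15, and 1.62 is more than sampling noise. Ttr was at 545 and 516 CPM in replicates 2 and 3, and at 5.65 to 67.2 CPM in the rest of the group. Whether both came from 1 mouse was not tested. They were kept as 2 mice, and summing them was an alternative.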

Additional observations from a re-analysis of the deposited data

Results flagged for a closer look

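Of 35 groups of a member with 4 to 10 mice and at least 10 reads on average, 5 held a mouse far from the others of its group, where chance gives about 1 in 20. Ccl6 was 1.17 CPM in Fmn2-/- replicate 1 of 3 months (nearest 0.727 CPM) and 9.59 CPM in labelled FMN2-/-_APP replicate 2 (nearest 2.94 CPM). Ccl9 was 1.14 CPM in Fmn2-/- replicate 4 of 3 months (nearest 0.363 CPM). Ccl12 was 1.20 CPM in labelled FMN2-/-_APP replicate 7 (nearest 0.585 CPM), a mouse with Thy1 in the range of mice without amyloid. Cxcl16 was lowest in Fmn2+/+ replicate 4 of 3 months, at 0.798 CPM (nearest 1.20 CPM).

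By the test of the difference between the amyloid effects (edgeR, over 38 mice), Ccl3, Ccl4 and Cx3cl1 had an adjusted p under 0.05. Of these, Cx3cl1 was under the fold threshold. The effect was larger at 4 months by 4.13 for Ccl3 and 3.45 for Ccl4 on the log2 scale. For Cx3cl1 the difference was -0.25, and -0.21 with no filter on low counts (adjusted p = 0.132, edgeR). Ccl3 and Ccl4 reached the filter on low counts mainly through the 4-month APP mice, so their values are a description.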

How the results depend on the processing

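The count of members called stayed at 0 at 3 months, 8 months and between the ages, and at 7 in the 4-month mice, under every alternative and with each mouse left out. In the cross it was 0 under the alternatives and 0 to 1 with each mouse left out. For the amyloid cross against mice without amyloid it was 2 to 4 under the alternatives and 3 to 4 with each mouse left out, and for the difference between the amyloid effects 2 to 3, with Cxcl10 called by DESeq2 (2.00, adjusted p = 0.0493). Values under the fold threshold changed sign in places, and the cause was not tested. With lane as a covariate, Cxcl16 was -0.13 and Cx3cl1 -0.024 at 3 months, and Ccl9 -0.075 in the cross. At 3 months that fit rests on Fmn2-/- replicate 1, the only Fmn2-/- mouse on the lane of the Fmn2+/+ mice. With the length and GC correction, Cx3cl1 was 0.031 at 8 months, 0.026 between the ages and -0.020 in the cross. Against mice without amyloid, Cx3cl1 was 0.022 for labelled FMN2 +/+ APP against Fmn2+/+, 0.063 for labelled FMN2-/-_APP against Fmn2+/+ and 0.025 without the mice with low Thy1. With each mouse left out, Cxcl16 ran from -0.11 to 0.16 at 3 months, from -0.32 to 0.25 at 8 months and from -0.44 to 0.26 between the ages, Ccl6 from -0.016 to 0.31 between the ages, Ccl9 from -0.12 to 0.37 and Cx3cl1 from -0.0048 to 0.066 in the cross, and Cx3cl1 from -0.019 to 0.016 against mice without amyloid.

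Replicate numbers did not pair the mice (mean correlation of same-numbered mice 0.0385, -0.00571, 0.0828 and 0.0243 at 3 months, 8 months, in the cross and at 4 months). The replicate block used only mice whose number occurs in both groups: 4 pairs at 3 months, 3 at 8 months, 7 in the cross and 6 at 4 months. With the replicate block the members called were 0, 0, 0, 0 and 7, and all genes called fell from 5 to 2 at 3 months, from 166 to 4 at 8 months and from 635 to 0 between the ages. The part of the smaller number of mice in these falls was not tested. The block gave Ccl9 -0.13 in the cross, and with the length and GC correction -0.11, and Cxcl16 0.016 and Cx3cl1 0.051 at 8 months. No paired analysis was possible because, for the amyloid cross against mice without amyloid, each side pools groups that use the same replicate numbers. Over all genes, calls ran from 2 to 91 at 3 months, 3 to 1124 at 8 months, 0 to 1401 between the ages, 93 to 304 in the cross and 1640 to 3867 against mice without amyloid, by alternative. With 1 mouse left out they ran from 3 to 49 at 3 months (49 without Fmn2-/- replicate 1), from 4 to 3087 at 8 months (4 without Fmn2+/+ replicate 1 or Fmn2-/- replicate 4, 3087 without Fmn2+/+ replicate 2) and from 8 to 2791 between the ages (8 and 2791 without those Fmn2+/+ mice). Ccl6 at 3 months ran from 0.20 to 0.83 by alternative, highest with lane as a covariate, a fit that rests on Fmn2-/- replicate 1. With 1 mouse left out Ccl6 ran from 0.0021 to 0.29, lowest without that same mouse. Ccl6 was never called. Low read counts limit Ccl2 and Ccl5.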
